A study of Mus musculus with 6 samples.

Results

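S100a8, S100a9, Camp, Ngp, Retnlg, Ltf, Lcn2 and Mmp8 are 8 of the 38293 genes listed in the count matrices, and their proteins are known as alarmins or as cargo of neutrophil granules. They were matched by symbol, and they were chosen because earlier results of these data showed them high in the EAE ROS+ libraries. Their EAE ROS+ and EAE ROS- values are therefore a description with no test. The EAE ROS- and healthy libraries allowed a test that the choice had not used.

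Neutrophils pack antimicrobial proteins and proteases into granules while they mature in the bone marrow, and the mRNA of most granule proteins is richest in their precursors. Calprotectin, the pair of the calcium-binding proteins S100A8 and S100A9, fills the cytosol of neutrophils and is also made by monocytes. Once released it acts as an alarmin, a danger signal read by innate immune receptors. Neutrophils and monocytes both enter the spinal cord early in experimental autoimmune encephalomyelitis (EAE), a mouse model of multiple sclerosis.

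The data were UMI counts, in which each UMI stands for 1 captured transcript, from single spinal cord cells that carried the myeloid surface protein CD11b. All mice were C57BL/6 and 10 weeks old, and all cells had been stained with 10 µM DCFDA, a dye that fluoresces when reactive oxygen species (ROS) oxidise it. The 3 groups of 2 libraries were EAE ROS+, EAE ROS- and healthy ROS-, and EAE had been induced with a myelin oligodendrocyte glycoprotein peptide and was studied at onset, at a score of 1. The labels do not say how many mice a library holds, so p-values measure only the spread between libraries, which may be technical.

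There were 1745 and 2233 cells in the EAE ROS+ libraries, 1614 and 1529 cells in the EAE ROS- libraries, and 1755 and 202 cells in the healthy ROS- libraries. Their totals were 23407825 and 15450857 UMIs for EAE ROS+, 15754177 and 11909166 UMIs for EAE ROS-, and 4431954 and 915197 UMIs for healthy ROS-. Across all pairs of libraries 42 cell barcodes were shared, and 0 of them belonged to the granule-high cells defined below. Monocyte/macrophage-like cells made up 93.5% and 96.7% of cells in EAE ROS+ and 41.8% and 66.4% in EAE ROS-, while no healthy cell fell in a cluster of that name. Healthy ROS- replicate 2 stood apart from replicate 1, with 65.3% of its cells in a mixed cluster that held endothelial as well as microglial markers, against 4.73% in replicate 1.

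On mouse build GRCm38 with GENCODE M21 annotation, S100a8 (ENSMUSG00000056054) lies at chr3:90668978-90670035 on the plus strand and S100a9 (ENSMUSG00000056071) at chr3:90692632-90695721 on the minus strand, 22596 bases apart. Camp (ENSMUSG00000038357, chr9:109847379-109849617, minus), Ngp (ENSMUSG00000032484, chr9:110419747-110423012, plus) and Ltf (ENSMUSG00000032496, chr9:111019271-111042767, plus) lie within 1.17 Mb of one another. Mmp8 (ENSMUSG00000005800, chr9:7558456-7568485, plus) lies elsewhere on the same chromosome. Retnlg (ENSMUSG00000022651) is at chr16:48872621-48874496 on the plus strand, and Lcn2 (ENSMUSG00000026822) at chr2:32384633-32388252 on the minus strand. None of the 8 overlapped another annotated gene on either strand, so counts without strand would not mix them with a neighbour.

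The 250 bases before the RefSeq start (GRCm38.p6) are shown for 5 members that behaved differently below: the neighbours S100a8 and S100a9, whose proportion varied between sets of cells, Camp and Ngp, which were in the same few cells, and Mmp8, whose UMIs lay mostly in other cells. Capitals mark the letters TATAAA on the gene's strand and TTNCNNAA on either strand, the core of sites of the C/EBP factors that drive granulocyte genes. They run 5′ to 3′ on the gene's strand.
S100a8 promoter, chr3:90668821-90669070, plus strand: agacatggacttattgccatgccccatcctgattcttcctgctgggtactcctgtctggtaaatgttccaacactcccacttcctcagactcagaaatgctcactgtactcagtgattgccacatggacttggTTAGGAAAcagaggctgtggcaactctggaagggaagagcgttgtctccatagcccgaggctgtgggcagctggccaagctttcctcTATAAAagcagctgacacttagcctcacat
S100a9 promoter, chr3:90695722-90695971, minus strand: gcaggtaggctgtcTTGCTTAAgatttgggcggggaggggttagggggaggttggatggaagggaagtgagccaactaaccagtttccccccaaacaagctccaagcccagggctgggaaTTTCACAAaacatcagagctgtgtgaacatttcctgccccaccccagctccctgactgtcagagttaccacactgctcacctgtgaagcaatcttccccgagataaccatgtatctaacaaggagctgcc
Camp promoter, chr9:109849457-109849706, minus strand: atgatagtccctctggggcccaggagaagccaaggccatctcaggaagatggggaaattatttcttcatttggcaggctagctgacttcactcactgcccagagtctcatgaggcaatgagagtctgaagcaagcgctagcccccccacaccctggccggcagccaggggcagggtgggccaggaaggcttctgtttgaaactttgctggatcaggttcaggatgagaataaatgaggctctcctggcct
Ngp promoter, chr9:110419558-110419807, plus strand: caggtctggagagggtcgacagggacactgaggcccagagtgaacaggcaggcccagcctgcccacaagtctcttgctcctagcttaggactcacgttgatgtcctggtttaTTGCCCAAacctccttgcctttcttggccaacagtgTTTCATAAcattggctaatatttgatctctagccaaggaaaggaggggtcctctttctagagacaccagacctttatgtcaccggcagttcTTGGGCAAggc
Mmp8 promoter, chr9:7558179-7558428, plus strand: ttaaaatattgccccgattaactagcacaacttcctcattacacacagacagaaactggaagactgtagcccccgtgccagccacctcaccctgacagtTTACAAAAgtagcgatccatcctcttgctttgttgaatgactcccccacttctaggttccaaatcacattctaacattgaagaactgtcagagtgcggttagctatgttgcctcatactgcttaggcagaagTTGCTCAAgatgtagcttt
All 8 members had a promoter in the RefSeq table. TATAAA stood in 1 member, S100a8, at 30 bases before the start, against 7.59% of all 32851 mouse promoters of this length. TTNCNNAA stood in 7 of 8 members, all but Camp, against 36.8% of all promoters. GAGGAA, the core of the PU.1 motif, stood on either strand in 4 members (S100a8, Ltf, Lcn2 and Mmp8), against 23.3% of all promoters. GGGCGG, the GC box, stood on either strand in 2 members (S100a9 and Lcn2), against 32.7%. In S100a8 a PU.1 match at 36 bases directly adjoined the TATAAA, and these matches are letters in a window, with nothing measured here at them.

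Every member had its highest level in the EAE ROS+ libraries. S100a8, an alarmin subunit, had 10333 and 14653 UMIs in EAE ROS+ (441 and 948 CPM, UMIs per 1000000 UMIs of the library), 673 and 1357 in EAE ROS- (42.7 and 114 CPM), with 3 and 0 UMIs in the healthy libraries. Its partner S100a9 had 4032 and 6666 UMIs in EAE ROS+ (172 and 431 CPM), against 7 and 7 in EAE ROS-, with 2 and 0 UMIs in healthy libraries. The groups did not overlap between the EAE gates for either gene, but S100a8 kept a clear level in EAE ROS- cells and S100a9 had barely any. In sums over a library, fewer cells of a type and less RNA per cell cannot be told apart.

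The granule proteins Camp, Ngp and Ltf were nearly absent outside the EAE ROS+ libraries. Camp, the precursor of the antimicrobial peptide CRAMP, had 823 and 1763 UMIs in EAE ROS+, 2 and 2 in EAE ROS-, with 0 UMIs in both healthy libraries. Ngp, a neutrophil granule protein of the cystatin family, had 952 and 2207 UMIs in EAE ROS+, 1 and 1 in EAE ROS-, with 0 UMIs in healthy libraries. Ltf, the iron-binding lactoferrin, had 126 and 317 UMIs in EAE ROS+, 1 and 2 in EAE ROS-, with 0 UMIs in healthy libraries. All EAE ROS+ values lay above all others, and outside EAE ROS+ these 3 genes had no more than 2 UMIs in any library.

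Retnlg, a resistin-like secreted protein of mature neutrophils, had 218 and 521 UMIs in EAE ROS+, 0 and 1 in EAE ROS-, with 1 and 0 UMIs in healthy libraries. Lcn2, an iron-siderophore-binding protein that macrophages and glia can make as well, had 520 and 927 UMIs in EAE ROS+, 29 and 52 in EAE ROS-, with 0 UMIs in healthy libraries. Mmp8, the collagenase of neutrophil tertiary and specific granules, had 742 and 1028 UMIs in EAE ROS+, 225 and 265 in EAE ROS-, with 1 and 0 UMIs in healthy libraries. Mmp8 had the smallest ratio between the EAE gates, 2.57 over pooled counts (95% counting interval 2.33 to 2.85), and Ngp the largest, 1124 (311 to 9288).

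Replicate 2 was above replicate 1 for all 8 genes in EAE ROS+. Means were 695 ± 358 CPM in EAE ROS+ and 78.4 ± 50.4 CPM in EAE ROS- for S100a8, and 91.8 ± 72.2 and 0.0737 ± 0.0145 CPM for Ngp (SD, n = 2 each). Counting intervals and limits cover counting error only.

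**Figure D1:**
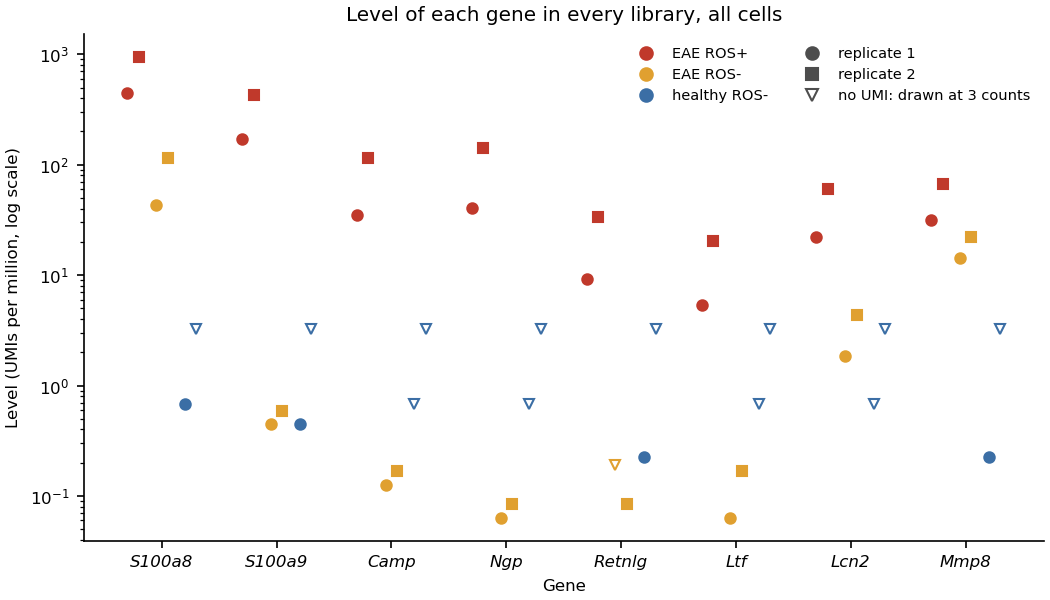
Level of each of the 8 genes in CPM (log axis) in every library, with EAE ROS+ left of EAE ROS- and healthy ROS-, circles for replicate 1, squares for replicate 2, and open triangles for a library with no UMI, drawn at 3 counts. EAE ROS+ is highest for every gene; S100a8, Lcn2 and Mmp8 also have a level in EAE ROS-, where the other 5 lie at 1 CPM or less.

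These levels rested on a few cells. A cell was called granule-high when its UMIs of S100a9, Ngp, Camp and Retnlg summed to 20 or more. There were 7 such cells in EAE ROS+ replicate 1 (0.401%, exact 95% interval 0.161% to 0.825%) and 12 in replicate 2 (0.537%, 0.278% to 0.937%). No cell of EAE ROS- or of the healthy libraries passed, which allows a share of up to 0.228% and 0.241% in EAE ROS- and up to 0.210% and 1.81% in healthy ROS-. The highest sum in any cell was 1 in EAE ROS-, 1 in healthy replicate 1 and 0 in healthy replicate 2. In EAE ROS+ the cells just inside the threshold had sums of 24 and 23, the highest sum outside it was 19 in both libraries, and 3 and 5 cells had sums of 10 to 19.

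These 19 cells held 0.394% and 0.544% of the UMIs of the EAE ROS+ libraries but most of the member UMIs. They held 95.1% of Ngp, 93.0% of Camp, 90.2% of Ltf, 89.2% of S100a9 and 86.9% of Retnlg UMIs in replicate 2, and 93.6%, 88.1%, 86.5%, 90.3% and 78.9% of the same genes in replicate 1. S100a8 and Lcn2 were less concentrated, with 58.8% and 71.8% of S100a8 and 68.3% and 71.6% of Lcn2 in replicates 1 and 2. Granule-high cells held 1.48% and 4.09% of the UMIs of Mmp8, the lowest share of the 8. Its level per UMI was still higher in them, at 119 and 500 CPM, against 31.4 and 64.2 CPM in the other EAE ROS+ cells, with all 11 UMIs of replicate 1 in 1 cell and 42 UMIs in 7 of 12 cells of replicate 2. For S100a8 the same levels were 65938 and 125067 CPM in granule-high cells and 183 and 269 CPM in the others. The definition itself used S100a9, Ngp, Camp and Retnlg, while S100a8, Ltf, Lcn2 and Mmp8 had no part in it.

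**Figure D2:**
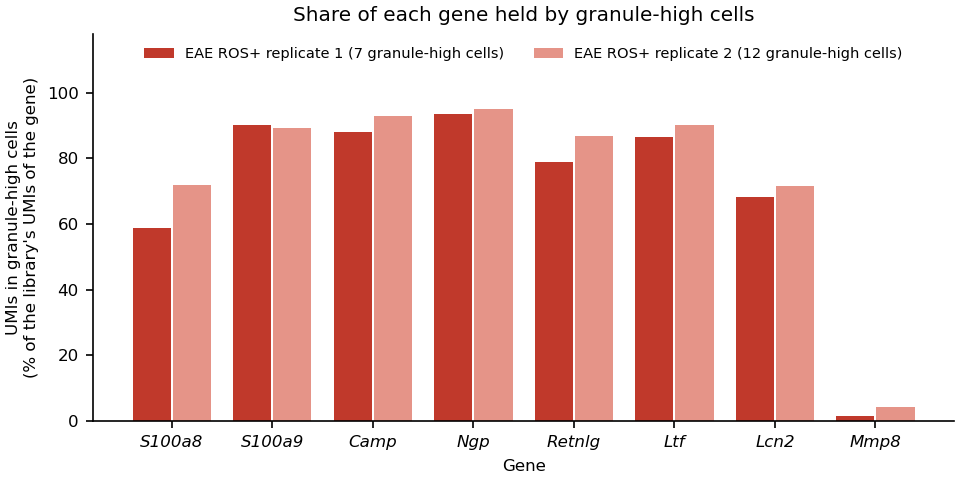
Percent of the UMIs of each gene in a library that lie in its granule-high cells, for EAE ROS+ replicate 1 (dark bars, 7 cells) and replicate 2 (light bars, 12 cells). The bars lie between 78.9% and 95.1% for S100a9, Camp, Ngp, Retnlg and Ltf, between 58.8% and 71.8% for S100a8 and Lcn2, and at 1.48% and 4.09% for Mmp8.

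Single cells decided much of the level. A single cell of EAE ROS+ replicate 1 held 41.1% of its S100a9, 55.8% of its Camp, 57.4% of its Ngp and 70.6% of its Ltf. In replicate 2 the richest cell for each of those genes held 14.2%, 17.5%, 17.2% and 16.4%. For Mmp8 the richest cell held 1.48% and 1.17%, and 111 and 135 cells were needed to reach 50% of the UMIs, against 2 and 5 cells for S100a9.

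The 19 cells fell into 12 with at least 10 UMIs of Camp and Ngp together (3 and 9 in replicates 1 and 2) and 7 with fewer (4 and 3), a division made after the values were seen. In the first kind, member UMIs were 10.4% to 59.4% of all UMIs of the cell. Their median was 1211.5 UMIs of S100a8, 714 of S100a9, 255 of Camp, 254.5 of Ngp, 31.5 of Ltf and 78 of Lcn2. In the second kind Ngp was 0 in all 7 cells, Ltf was 0 in all 7, Camp reached 1 UMI, and S100a8 ranged from 15 to 427 UMIs.

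Retnlg and Mmp8 did not rise and fall with Camp, Ngp and Ltf from cell to cell. The richest cell of replicate 1 had 546 UMIs of Ngp, 459 of Camp, 89 of Ltf and 6 of Retnlg. Another cell of that library had 88 of Ngp, 2 of Camp, 2 of Ltf and 136 of Retnlg, with 11 of Mmp8. In replicate 2, 1 cell had 216 of Retnlg, 10 of Ngp and 0 of Camp and of Ltf, and another had 253 of Camp, 249 of Ngp and 0 of Retnlg. Retnlg was thus highest in cells where Camp was at 0 or 2, each of them a single cell of its library. Mmp8 had UMIs in 7 of the 12 cells and at most 12 UMIs in one.

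**Figure D3:**
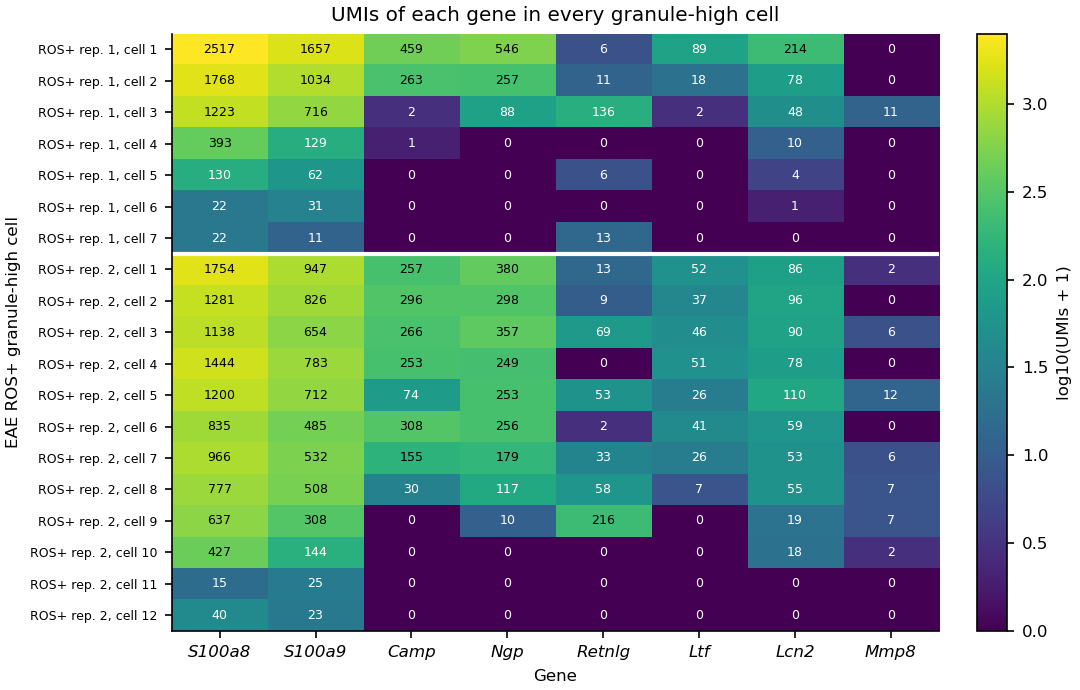
UMIs of the 8 genes (columns) in each of the 19 granule-high cells (rows; EAE ROS+ replicate 1 above the white line, replicate 2 below it), with the count printed in each field and colour for log10(UMIs + 1). Camp, Ngp and Ltf are together in the upper cells of each library and at 0 to 1 UMI in the 7 cells with few of them, which still hold S100a8 and S100a9.

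S100a8 and S100a9 kept nearly the same proportion in the 12 cells rich in Camp and Ngp, with 1.52 to 2.07 UMIs of S100a8 per UMI of S100a9 in every cell. In the 7 other cells it ran from 0.600 to 3.05. Other neutrophil genes differed in how far they followed this division. Cd177, a neutrophil surface protein, and Pglyrp1, a granule peptidoglycan-binding protein, had UMIs in 12 of the 12 cells, against 0 and 3 of the 7. The neutrophil surface genes Csf3r, Cxcr2 and Ly6g had UMIs in 5, 6 and 4 of the 12 and in 5, 3 and 0 of the 7. Csf3r had 8 UMIs in the 12 cells and 18 in the 7, and Cxcr2 had 9 and 10. Cebpe, the transcription factor needed for specific granules, had UMIs in 7 of the 12 and 2 of the 7. Mpo, the peroxidase of primary granules, had 0 UMIs in all 19, and Elane, neutrophil elastase, had 1. Over all 19 cells 12 of 13 neutrophil markers that are no members were detected. They were at 64.7 UMIs per 10000, against 4.23 in the other EAE ROS+ cells. The 12 cells held 1039 of these 1140 UMIs, so the pooled level does not describe the 7. By gene, 618 of the 1140 were of Wfdc21, which also led a monocyte/macrophage-like cluster.

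The 19 cells also held monocyte/macrophage markers, at 206 UMIs per 10000 and 11 of 11 detected, against 254 in the other EAE ROS+ cells. Of these 3623 UMIs in the 19 cells, 2390 were of Lyz2 and 218 of Chil3. Both genes are also in the list of secondary and tertiary granule genes, so this sum does not separate monocytes from neutrophils. Microglial markers were at 3.06 per 10000, against 8.93, and erythroid, platelet, T cell and B cell markers were at 0. Ccr2, the chemokine receptor of inflammatory monocytes, had 24 UMIs in the 7 cells and 3 in the 12. The 7 cells had a median of 9340 UMIs and the 12 a median of 5842.5. No doublet caller was run here, and the part of 2 cells sharing a droplet was not tested; in replicate 2, 1 cell of the 12 had 19015 UMIs, 10.4% of them member UMIs. Markers of dividing cells reached 33 and 16 UMIs in 2 cells of replicate 2.

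Clustering of all cells without the 8 genes put 12 of the 19 in 1 cluster led by Ifitm6 and Lrg1, which held 385 further cells, 4 in a cluster led by Saa3 and Ms4a7, 2 in a cluster led by Plac8, and 1 in a cluster led by Wfdc21 and Cxcl3. All these clusters were called monocyte/macrophage-like from the cells that were not granule-high. No cluster of neutrophils formed, so the granule-high cells are named by their rule alone.

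Genes most like the members were sought among 12562 other genes, each with at least 20 UMIs in the EAE ROS+ libraries together and 1 in each, by the share of their EAE ROS+ UMIs that lay in granule-high cells, a measure with a median of 0.301%. The mean shares over both libraries were 62.3% for Pglyrp1, 60.2% for Mmp9 (gelatinase B of tertiary granules), 59.8% for Serpinb1a (an inhibitor of neutrophil serine proteases), 57.5% for Asprv1 (a retroviral-like aspartic protease) and 39.1% for G0s2 (an inhibitor of lipolysis). Cxcr2, the neutrophil chemokine receptor, had 35.4%, followed by Slc40a1, Stfa2l1, Cldn15 and Slc2a3 at 35.3% to 32.6%. These genes had 20 to 406 UMIs in the EAE ROS+ libraries. Below that minimum, Ceacam10 had 94.7% of 19 UMIs and Itgb2l 86.7% of 15 UMIs in granule-high cells, both neutrophil surface proteins of the lists. Libraries differed for some of them: Stfa2l1 had 10.0% in replicate 1 and 58.8% in replicate 2. The measure used EAE ROS+ cells only, and groups differed as well. Serpinb1a and Slc2a3 had 72 and 67 UMIs in EAE ROS-, against 8 and 47 and 17 and 20 in the EAE ROS+ libraries. Slc40a1 had 448 UMIs in healthy libraries, against 7 and 19 in EAE ROS+. The other genes of this ranking had most UMIs in EAE ROS+.

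Outside the granule-high cells, S100a8 was the member with most UMIs left. It had 183 and 269 CPM in the other EAE ROS+ cells and 42.7 and 114 CPM in EAE ROS- cells. S100a9 had 16.8 and 46.8 CPM in EAE ROS+ and 0.444 and 0.588 CPM in EAE ROS-. Ngp had 2.62 and 7.03 CPM in EAE ROS+ and 0.0635 and 0.0840 CPM in EAE ROS-. All 8 genes remained higher in both EAE ROS+ libraries than in both EAE ROS- libraries, with no test, since the same contrast chose them. No share over all genes is given here for this ordering, so the count of 8 is not read as a result.

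Free RNA in droplets gives UMIs in cells that do not express a gene, so S100a9 was also described in microglia-like cells. In EAE ROS+, S100a9 had UMIs in 15.9% and 22.8% of the other monocyte/macrophage-like cells (median depth 9336 and 5422 UMIs) and in 17.6% and 18.2% of microglia-like cells (7960 and 5548 UMIs). The microglia-like shares rested on 3 of 17 and 2 of 11 cells, with exact 95% intervals of 3.80% to 43.4% and 2.28% to 51.8%. The S100a9 level was 17.2 and 46.8 CPM in the monocyte/macrophage-like cells and 18.2 and 46.7 CPM in the microglia-like cells. These levels lay close together in each library, the microglia-like ones resting on 3 UMIs each, and the part of free RNA in them was not tested. At most 19 UMIs of S100a9 lay in any 1 of these cells, the limit that the rule sets.

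The proportion of the S100 pair varied between sets of cells. The proportion of S100a8 to S100a9 UMIs was 1.67 and 1.77 in granule-high cells, and 10.9 and 5.76 in the other EAE ROS+ cells. The rule itself moves cells rich in S100a9 inside and keeps the other cells at 19 UMIs of S100a9 or fewer, so this difference is in part fixed by it and is given with no test. In EAE ROS-, where the rule removed no cell, the proportion was 96.1 and 194 (95% counting intervals 46.4 to 240 and 93.8 to 483). Of cells outside the granule-high cells with at least 5 UMIs of S100a8, 209 of 287 and 132 of 234 had no UMI of S100a9 in EAE ROS+, and 18 of 18 and 74 of 75 had none in EAE ROS-. The highest S100a8 count in 1 EAE ROS- cell was 16 in replicate 1 and 48 in replicate 2.

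**Figure D4:**
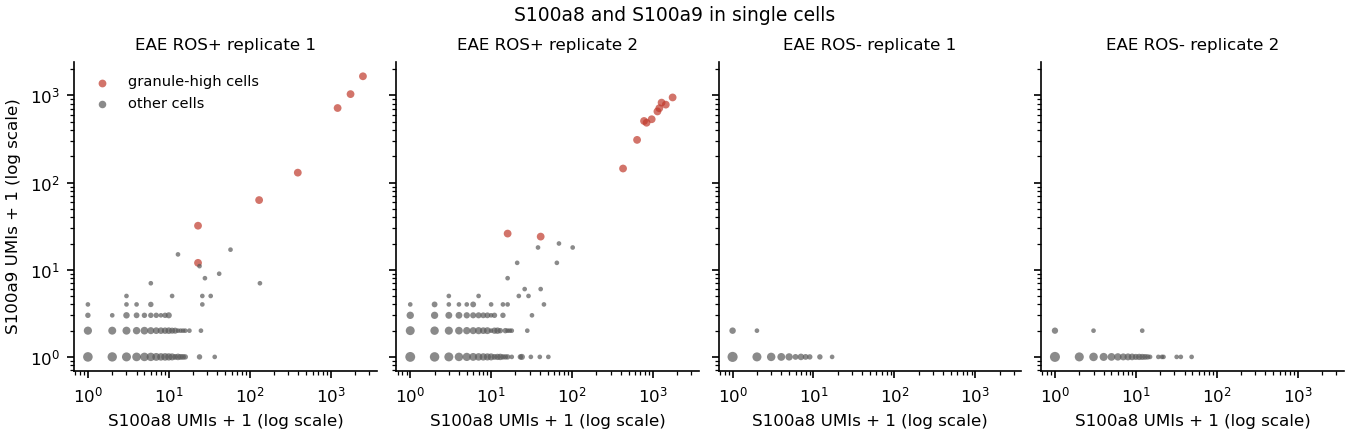
S100a8 UMIs (horizontal) against S100a9 UMIs (vertical) per cell, both plus 1 on log axes, for the 2 EAE ROS+ and 2 EAE ROS- libraries; red points are granule-high cells, grey points other cells, and point size grows with the number of cells at a position. The granule-high cells of EAE ROS+ lie near a line, while EAE ROS- cells reach 16 and 48 UMIs of S100a8 with 1 UMI of S100a9 at most.

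The S100a8 of EAE ROS- lay in monocyte/macrophage-like cells more than in microglia-like cells. It was 79.9 and 145 CPM in the first, with UMIs in 34.1% and 34.3% of cells (median depth 7460.5 and 6552 UMIs). In microglia-like cells it was 4.07 and 8.92 CPM, with UMIs in 2.94% and 4.63% of cells (6384 and 4656.5 UMIs). Dendritic cell-like cells of EAE ROS- had 4.74 and 9.24 CPM. A further mixed cluster, with monocyte/macrophage and microglial markers, had 40.5 and 106 CPM in EAE ROS-. There UMIs of S100a8 were in 40.9% and 62.2% of cells, at a greater median depth of 17809 and 15749 UMIs. This cluster held 223 of the 673 and 282 of the 1357 S100a8 UMIs of the EAE ROS- libraries. For monocyte/macrophage-like cells of EAE ROS-, the exact intervals of the shares were 30.5% to 37.8% and 31.4% to 37.3%. For microglia-like cells they were 1.53% to 5.08% and 2.24% to 8.35%. These intervals count single cells within a library, so they do not test a difference between the classes. Median depth was also greater in the monocyte/macrophage-like cells of each library. In EAE ROS+, S100a8 was 187 and 271 CPM in monocyte/macrophage-like cells outside granule-high cells and 60.6 and 171 CPM in the 17 and 11 microglia-like cells.

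Within monocyte/macrophage-like cells, clusters differed in S100a8. In EAE ROS- the cluster led by Fabp5 and Gpnmb had 226 and 265 CPM of S100a8 in 37 and 81 cells. The cluster led by Ifitm1 and Il1r2 had 22.4 and 44.1 CPM in 262 and 124 cells. In EAE ROS+ the same clusters had 264 and 350 CPM and 100 and 125 CPM. The order of these clusters was thus the same in all 4 EAE libraries, while S100a9 in EAE ROS+ was 16.5 and 43.8 CPM in the first and 20.2 and 27.8 CPM in the second. The 20.2 CPM of replicate 1 came from 19 UMIs, 14 of them in 1 cell, and was 5.36 CPM without that cell. In EAE ROS- S100a9 had no UMI in either cluster.

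Most Mmp8 UMIs lay in cells that were not granule-high. It had 31.4 and 64.2 CPM outside granule-high cells in EAE ROS+ and 14.3 and 22.3 CPM in EAE ROS-. Within monocyte/macrophage-like cells it had 32.9 and 65.3 CPM in EAE ROS+ and 30.3 and 30.5 CPM in EAE ROS-, so replicate 1 of EAE ROS+ lay close to both EAE ROS- libraries. In EAE ROS+, UMIs were found in 24.1% and 24.9% of those cells, against 0% and 9.09% of the 17 and 11 microglia-like cells. In EAE ROS- they were found in 12.6% and 13.3% of monocyte/macrophage-like cells, against 1.72% and 0% of microglia-like cells, whose exact intervals reached 3.50% and 1.69%.

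Among monocyte/macrophage-like clusters with at least 20 cells in a library, Mmp8 was highest in the cluster where most granule-high cells lay, with those cells left out, in EAE ROS+ and in EAE ROS- replicate 2. The cluster led by Ifitm6 and Lrg1 had 110 and 146 CPM in 40 and 292 EAE ROS+ cells, and 88.7 CPM in the 48 cells of EAE ROS- replicate 2. In EAE ROS- replicate 1 it held 5 cells with 88.1 CPM (3 UMIs), below the 149.9 CPM (11 UMIs) in the 8 cells of the cluster led by Wfdc21 and Cxcl3. The cluster led by Ms4a7 and Pltp had 5.04 and 21.2 CPM in EAE ROS+, and 8.09 CPM in EAE ROS- replicate 1. This pattern differed from that of S100a8, which the cluster led by Ifitm6 and Lrg1 held at 870 and 344 CPM in EAE ROS+ but at 62.8 CPM in EAE ROS- replicate 2. The 870 CPM rested in large part on 1 cell with 133 UMIs of S100a8 and 6 of S100a9.

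**Figure D5:**
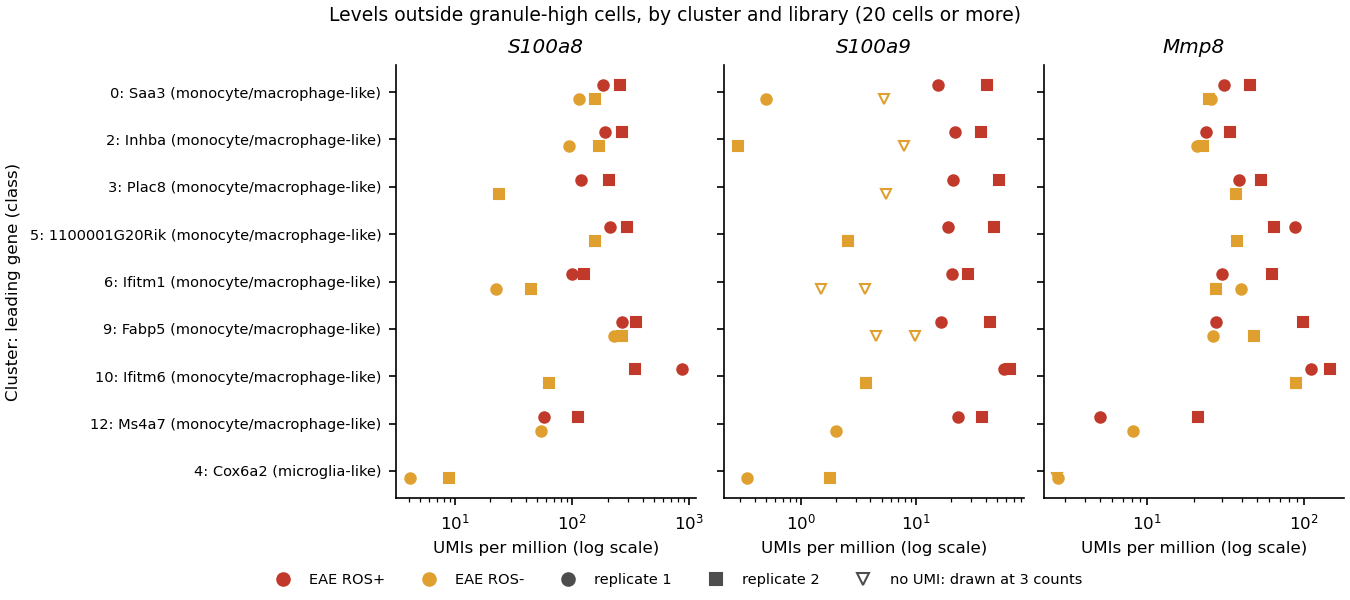
S100a8, S100a9 and Mmp8 in CPM (log axes) in cells outside the granule-high cells, by cluster (rows, each with its leading gene) and EAE library, with EAE ROS+ drawn above EAE ROS-, circles for replicate 1, squares for replicate 2, and open triangles for no UMI, drawn at 3 counts; libraries with under 20 cells in a cluster are left out. S100a8 spans a wide range over clusters in EAE ROS-, S100a9 in EAE ROS+ lies between 15.5 and 65.2 CPM in every monocyte/macrophage-like cluster drawn, and Mmp8 is highest in cluster 10 in the 3 libraries drawn for it. With the richest cell of a cluster left out, S100a9 in EAE ROS+ replicate 1 was 5.36 CPM in cluster 6 and 9.05 CPM in cluster 2.

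Like S100a8, Lcn2 was higher in EAE ROS+ than in EAE ROS-, but at lower levels and with another order of clusters. Outside granule-high cells it had 7.08 and 17.1 CPM in EAE ROS+ and 1.84 and 4.37 CPM in EAE ROS-. Within monocyte/macrophage-like cells it had UMIs in 7.75% and 9.08% of cells in EAE ROS+, against 2.23% and 3.05% in EAE ROS-. In microglia-like cells there were 0 UMIs in the 28 EAE ROS+ cells, and UMIs in 2 of 408 and 0 of 216 EAE ROS- cells. In EAE ROS+ the cluster led by Fabp5 and Gpnmb had 3.87 and 5.74 CPM of Lcn2 (8 UMIs each). The cluster led by Ifitm1 and Il1r2 had 8.52 and 13.9 CPM (8 and 4 UMIs), the reverse of their order for S100a8. The cluster led by Ifitm6 and Lrg1 had 69.4 and 38.4 CPM (17 and 53 UMIs).

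Depth entered every share of cells with a UMI. With each cell thinned to 1000 UMIs, S100a8 had UMIs in 14.6% and 16.8% of the EAE ROS+ cells outside the granule-high cells, against 68.1% and 55.0% before thinning. In EAE ROS- it had UMIs in 3.78% and 7.91% of thinned cells, against 21.9% and 30.0%. Thinned shares of Mmp8 were 2.88% and 6.44% in EAE ROS+ and 1.30% and 1.90% in EAE ROS-. The EAE ROS+ libraries stayed above the EAE ROS- libraries for both genes. Thinning left out 57 and 6 cells of the healthy libraries and none of the others.

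Across EAE ROS- and healthy ROS- libraries, S100a8, Mmp8 and Lcn2 rose. The other 5 members had 1 to 14 UMIs in EAE ROS- and up to 2 in healthy libraries, and no test of them is read. S100a8 was at 78.4 ± 50.4 CPM in EAE ROS- and 0.338 ± 0.479 CPM in healthy libraries (SD, n = 2 each), a log2 fold change of 7.62 ± 0.90 (SE; edgeR, adjusted p = 0.000346). Mmp8 was at 18.3 ± 5.64 CPM in EAE ROS- and 0.113 ± 0.160 CPM in healthy libraries, the fitted change having an SE of 0.86 on the log2 scale (edgeR, adjusted p = 0.000429). With 3 and 1 UMIs in the healthy libraries, the pooled ratios were 131 for S100a8 (95% counting interval 44.7 to 635) and 94.7 for Mmp8 (16.9 to 3749).

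Lcn2 had 81 UMIs in EAE ROS- and 0 in healthy libraries, at least 5.22-fold higher than 3 counts over the healthy group (edgeR, adjusted p = 0.0293). Both EAE ROS- libraries lay above both healthy libraries for these 3 genes. The call for Lcn2 was lost without healthy replicate 1 (adjusted p = 0.335) and without healthy replicate 2 (adjusted p = 0.0765), and those for S100a8 and Mmp8 held with any 1 library left out. In the same fit 34% of the 13631 genes tested were called, 19.9% higher and 14% lower in EAE ROS-. Without healthy replicate 1, 1443 genes were called higher instead of 2715, and without EAE ROS- replicate 2 1990 were.

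S100a9 had 14 UMIs in EAE ROS- and 2 in healthy libraries, a ratio of CPM of 1.35 with a 95% counting interval of 0.311 to 12.3. Camp, Ngp, Ltf and Retnlg had 4, 2, 3 and 1 UMIs in EAE ROS-, against 0, 0, 0 and 1 in healthy libraries, too few for a difference to be detectable at this depth. All 8 members passed the filter on low counts in the fit over 6 libraries, but S100a9, Camp, Ngp, Ltf and Retnlg did so only through the EAE ROS+ libraries, so their fitted values in this comparison are not given. Monocyte/macrophage markers summed to 10736 and 16361 CPM in EAE ROS- and 527 and 479 CPM in healthy libraries, with 11 of 11 detected in EAE ROS- and in healthy replicate 1 and 5 at 0 in healthy replicate 2. The part of that shift in cell classes in the rise of S100a8 and Mmp8 was not tested; within microglia-like cells S100a8 had 22 UMIs in 624 EAE ROS- cells and 3 in 1740 healthy cells, and Mmp8 had 8 and 1.

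Other genes of these families were described over the same comparison, from lists chosen with earlier results of these data known. Of 8 other S100 genes tested, 6 rose in EAE ROS- and 1 fell, with a median log2 fold change of 3.00, against 0.01 over all genes. S100a6 was at 652 ± 265 CPM in EAE ROS- and 1.81 ± 2.55 CPM in healthy libraries, with a log2 fold change of 8.36 ± 0.63 (edgeR, adjusted p = 3.3e-05). S100a11 and S100a10 rose by 6.16 and 4.30 and S100a4 by 6.67 on the log2 scale. S100b, which glia also express, fell by 3.37, and S100a16 did not pass.

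Receptors that bind member proteins moved in both directions, with 3 higher, 1 lower and 3 of the 7 tested not called, at a median log2 fold change of -0.10. Fpr2, a formyl peptide receptor that the cathelicidin peptide engages, was at 99.1 ± 51.8 CPM in EAE ROS- and 0.113 ± 0.160 CPM in healthy libraries (edgeR, adjusted p = 4.29e-05), a pooled ratio of 503 with a counting interval of 90.1 to 19860. Cd36, a scavenger receptor reported to bind calprotectin, was at 81.7 ± 43.8 CPM in EAE ROS- and 0.451 ± 0.638 CPM in healthy libraries (edgeR, adjusted p = 0.0001). Fpr1 was at least 13.7-fold higher than 3 counts over the healthy group, though not called without healthy replicate 1 (edgeR, adjusted p = 0.0917). Slc22a17, a lipocalin-2 receptor, fell by 1.39 on the log2 scale (edgeR, adjusted p = 0.0445) and was not called without EAE ROS- replicate 2, healthy replicate 1 or healthy replicate 2 (adjusted p of 0.174, 0.120 and 0.171). Bsg and Lrp1, further receptors, did not pass (edgeR, adjusted p = 0.831 and 0.478), nor did Tlr4, the best known receptor of calprotectin (adjusted p = 0.892).

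Of 12 secondary and tertiary granule genes tested that are no members, 6 rose, none fell and 6 did not pass. Their median log2 fold change was 6.24, or 3.99 with the genes at 0 in healthy libraries at their bound of 3 counts. Mmp9 and Fcnb, with 4 and 11 UMIs in EAE ROS- and 0 in healthy libraries, could pass the filter on low counts only with the EAE ROS+ libraries. Their fits are in these counts and medians, and nothing is read from them singly. Hp, haptoglobin, was at 193 ± 64.8 CPM in EAE ROS- and 1.11 ± 0.0251 CPM in healthy libraries, and Chil3, a chitinase-like protein of monocytes and neutrophils, at 192 ± 172 and 1.67 ± 0.823 CPM (edgeR, adjusted p = 1.08e-05 and 0.00064). Pglyrp1 did not pass, at 3.46 ± 0.220 CPM in EAE ROS- and 21.8 ± 29.5 CPM in healthy libraries. Of the 8 genes of the primary granule list 2 were tested, and both rose. Prtn3 (proteinase 3) was at least 29.0-fold above 3 counts over the healthy group. Serpinb1a, the inhibitor of neutrophil serine proteases, was at least 4.64-fold above it, though not called without healthy replicate 1 or healthy replicate 2. Mpo, Elane, Ctsg, Bpi, Prss57 and Ms4a3 had 0 to 4 UMIs in EAE ROS- and were not tested.

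Among 11 neutrophil surface receptors tested 9 rose and 1, Csf3r, fell, at 60.5 ± 25.5 CPM in EAE ROS- and 156 ± 21.9 CPM in healthy libraries (median log2 fold change of the list 9.36, or 4.61 with such genes at their bound). Trem1, an activating receptor of neutrophils and monocytes, was at least 111-fold higher than 3 counts over the healthy group. Of 9 stefin and cytosolic genes 4 rose (median 6.38, or 3.35 at the bound), among them Ptgs2, the inducible cyclooxygenase, with a log2 fold change of 4.79. Asprv1 and Padi4 of that list, with 3 and 6 UMIs in EAE ROS- and 0 in healthy libraries, also passed the filter only with the EAE ROS+ libraries. Of 7 granulopoiesis factors Cebpb (log2 fold change 2.55) and Gfi1 rose, while Cebpa fell by 0.98 and Cebpd by 2.36 (median of the list 0.54). The calls for Gfi1 and Cebpa were lost without EAE ROS- replicate 2 (adjusted p of 0.0822 and 0.142), healthy replicate 1 (0.334 and 0.153) or healthy replicate 2 (0.0848 and 0.0648). Of 5 other alarmins Hmgb2 rose by 1.66 on the log2 scale, Hspa1a fell by 2.29, and Hmgb1, Hsp90aa1 and Il1a did not pass (median 0.71). Many of these genes are also expressed by monocytes. The neutrophil marker list itself summed to 236 and 389 CPM in EAE ROS- and 177 and 189 CPM in healthy libraries. Single genes made up most of these sums, so they do not describe the list as a set. Csf3r had 891 UMIs in healthy libraries and 1742 in EAE ROS-, while Mcemp1 had 3 and 5305.

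Between the EAE gates 2.16% of 13631 genes were called over all cells, 17 higher (0.125%) and 278 lower (2.04%) in EAE ROS+. The members were chosen from this contrast, and nothing is read from their calls in it. Of the related lists, Hp, Asprv1 and G0s2 were called higher and Cd36 and Slc22a17 lower, and no other list gene was called. Hp was at 442 ± 62.0 CPM in EAE ROS+ and 193 ± 64.8 CPM in EAE ROS-, a log2 fold change of 1.36 ± 0.27 (edgeR, adjusted p = 0.0386). Cd36 was at 12.9 ± 4.13 CPM in EAE ROS+ and 81.7 ± 43.8 CPM in EAE ROS-, and fell by 2.47 ± 0.39 on the log2 scale (edgeR, adjusted p = 0.0128). G0s2, with 137 UMIs in EAE ROS+ and 8 in EAE ROS-, had a log2 fold change of 3.83 (edgeR, adjusted p = 0.0159). Slc22a17 fell by 2.42 (edgeR, adjusted p = 0.0411). Asprv1 had 88 UMIs in EAE ROS+ and 3 in EAE ROS-. It passed the filter on low counts only with the EAE ROS+ libraries, so nothing is read from its call.

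With the granule-high cells left out of the sums, an alternative chosen after seeing the data, Hp kept a log2 fold change of 1.34 and Cd36 one of -2.47, G0s2 had 3.02 instead of 3.83 (edgeR, adjusted p = 0.0358), and Asprv1 no longer passed the filter on low counts. All 5 calls were lost without EAE ROS+ replicate 2 (adjusted p of 0.0759 to 0.261), without healthy replicate 1 (0.058 to 0.11) and without healthy replicate 2 (0.0545 to 0.101). Calls other than that for Cd36 were also lost without EAE ROS- replicate 1, and those for Hp and Slc22a17 without EAE ROS+ replicate 1 (adjusted p of 0.0709 and 0.0899). The number of genes called higher ran from 8 to 121 with 1 library left out.

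Within monocyte/macrophage-like cells outside the granule-high cells, 0 of 11783 genes were called between the EAE gates by edgeR (0%). At an unadjusted p under 0.05 there were 414. By DESeq2, 7 genes passed as higher in EAE ROS+ and 17 as lower. Of the members, S100a8 was at 229 ± 59.5 CPM in EAE ROS+ and 113 ± 46.1 CPM in EAE ROS-, and Mmp8 at 49.1 ± 23.0 and 30.4 ± 0.104 CPM. S100a9 was at 32.0 ± 20.9 and 0.460 ± 0.127 CPM. Ltf did not pass the filter on low counts in this fit. Of the related lists, Chil3, Hmgb1, Spi1 and S100a6 were at 827 ± 426, 261 ± 11.9, 537 ± 85.9 and 979 ± 314 CPM in EAE ROS+ and at 295 ± 202, 294 ± 17.9, 489 ± 23.2 and 835 ± 220 CPM in EAE ROS-.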

How the data were processed

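Spinal cord CD11b+ cells were sorted on DCFDA fluorescence and libraries were made with the Chromium Single Cell 3′ v2 kit, per the labels' protocols. What the authors deposited were raw UMI counts, one matrix a library. The submitters' processing notes name Cell Ranger 2.0.1, Seurat 3, R 3.4.2 and mm10 (GRCm38) without roles. The files held 9079 barcodes, against 8701 cells stated by the study, by a filter not given in the sources used here. A minimum of 200 genes and a mitochondrial share of up to 10% left 9078. No doublet caller was run.

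Members, gene lists and markers were chosen with earlier results of these data known. Cells were clustered with scanpy 1.11.5 on 2000 variable genes without the 8 members (30 components, 15 neighbours, Leiden resolution 1, leidenalg 0.10.2, 16 clusters, no integration). Names came from marker lists, from at least 3 markers at 0.5 per 10000 UMIs and a relative level of 0.25, settings chosen with the clusters in view. Counts were summed per library and tested with edgeR 4.0.16 in R 4.3.3 (TMM; filterByExpr, minimum count 10; quasi-likelihood F-test; p adjusted by Benjamini-Hochberg, threshold 0.05), checked on simulated data. The 6 libraries shared 1 fit with 3 residual degrees of freedom, and a second fit, of monocyte/macrophage-like cells in the 4 EAE libraries, had 2. TMM raised log2 fold changes over plain CPM by 0.50 for EAE ROS- over healthy ROS- and by 0.18 for EAE ROS+ over EAE ROS-; CPM in the text are plain. Intervals are exact, at 95%. Alternatives were DESeq2 1.42.0, no filter on low counts, a replicate block, other thresholds and each library left out. Named genes were all members and, per list and comparison, up to 4 called genes with the largest change and up to 2 not called with the highest level, of which the text gives a part; Csf3r, S100b, Tlr4 and Il1a were added after their values were seen.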

Additional observations from a re-analysis of the deposited data

How the results depend on the processing

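With a threshold of 10 or 40 UMIs, granule-high cells were 0.667% and 0.367% of EAE ROS+ cells instead of 0.469%, and the share of member UMIs they held was 74.5% and 72.9% instead of 73.4%. With 1 EAE ROS+ library left out, these were 0.401% to 0.537% of cells and 67.5% to 77.1% of UMIs, and the summed member level outside them was 247 to 419 CPM, against 333 CPM.

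Thinning each cell to 1000 UMIs lowered the share of EAE ROS+ cells outside the granule-high cells with a UMI to 15.7% for S100a8, 3.02% for S100a9, 0.680% for Camp, 0.424% for Ngp, 0.180% for Retnlg, 0.283% for Ltf, 1.21% for Lcn2 and 4.66% for Mmp8, with fewer UMIs per cell by construction.

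S100a8 and Mmp8 kept their direction and call in EAE ROS- over healthy ROS- under DESeq2, no filter, the block and each library left out (log2 fold changes of 6.70 to 12.97 and 6.62 to 10.86). Without healthy replicate 1 the healthy group had 0 UMIs of either gene, at a depth where 3 counts equal 3.28 CPM. The size of the fitted change is not read there. Lcn2 had 0 UMIs in both healthy libraries, so the sizes of its fitted changes are not read either. Its log2 fold changes ran from 7.39 to 8.58 with any library left out. It lost its call without either healthy library, at 8.28 and 8.39. The causes were not tested.

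Between the EAE gates 295 genes were called over all cells, 1006 with no filter on low counts and 123 to 632 with 1 library left out. In monocyte/macrophage-like cells 0 were called, 24 with DESeq2, 105 with no filter and 0 to 7 with 1 library left out. For EAE ROS- over healthy ROS-, 4629 were called, and 2364 to 4295 with 1 library left out. The replicate numbers share no stated source, and with 2 pairs a pairing could not be settled (same-numbered EAE libraries deviated together at r = 0.587, and EAE ROS- and healthy libraries at -0.039). With a replicate block, 596 genes were called between the EAE gates and 85 in monocyte/macrophage-like cells. Depth limits Camp, Ngp, Ltf and Retnlg outside EAE ROS+, where 3 counts equal 0.190 to 3.28 CPM.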
